A study of Mus musculus with 9 samples.

Results

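The adrenomedullin and apelin systems are a pair of vasoactive peptide systems, and 7 of their genes were followed across 9 retinal samples: the ligand genes Adm and Apln, the receptor genes Calcrl and Aplnr, and the receptor activity-modifying protein genes Ramp1, Ramp2 and Ramp3. The genes were chosen by symbol, with earlier results of these data known, and all 7 were found among the 48679 names of the count table. The samples were 3 of RVO eyes, 3 of control laser-treated eyes and 3 of untreated eyes, all from C57BL/6J mice 12 weeks old, and each was a pool of 6 retinas of 6 mice, so that n counts pools. In RVO eyes all large veins were closed by laser after injection of eosin Y, a dye that sensitizes vessels to light. The fellow eye of the same mouse received as many laser spots between the large vessels (control), and both were taken at d2. The study reports that part of the closed veins reopened in the days after laser, so some may have been open at d2. Untreated eyes were from mice without laser. Both laser groups share the anesthesia, the dye and the laser injury, and whether untreated mice were anesthetized or given the dye is not given in the sources used here.

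Adrenomedullin is a peptide that widens vessels and stabilizes the endothelial barrier. It signals through the calcitonin receptor-like receptor Calcrl only when this receptor is bound to a RAMP protein, and the RAMP sets the ligand: with Ramp1 the complex is a receptor for calcitonin gene-related peptide (CGRP), and with Ramp2 or Ramp3 it is an adrenomedullin receptor. Apelin is secreted by sprouting endothelial tip cells and acts on the receptor Aplnr of neighbouring endothelial cells. Both ligand genes are known to be induced by hypoxia-inducible factors (HIF).

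The sequences before the starts of Adm, Apln and Ramp3 are shown because these 3 genes were higher in both laser groups than in untreated eyes. They are from RefSeq (GRCm38.p6), run up to the gene start, and are written 5′ to 3′ on the strand of the gene. RefSeq promoters were matched for 5 of the 7 genes, Adm, Apln, Calcrl, Ramp1 and Ramp3. Capitals mark the core of the HIF binding motif, ACGTG or GCGTG on either strand (CACGC is GCGTG read from the other strand).
Adm, chr7:110627407-110627656, plus strand: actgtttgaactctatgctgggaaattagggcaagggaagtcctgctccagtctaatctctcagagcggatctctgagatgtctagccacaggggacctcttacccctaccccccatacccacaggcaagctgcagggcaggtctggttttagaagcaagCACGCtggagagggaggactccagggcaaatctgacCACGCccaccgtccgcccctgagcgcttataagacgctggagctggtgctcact
Apln, chrX:48034854-48035103, minus strand: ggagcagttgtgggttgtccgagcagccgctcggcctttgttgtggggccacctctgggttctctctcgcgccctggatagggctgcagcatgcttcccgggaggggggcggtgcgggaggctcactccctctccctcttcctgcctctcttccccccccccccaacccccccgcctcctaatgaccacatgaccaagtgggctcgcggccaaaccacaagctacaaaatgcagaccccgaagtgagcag
Ramp3, chr11:6658283-6658520, plus strand: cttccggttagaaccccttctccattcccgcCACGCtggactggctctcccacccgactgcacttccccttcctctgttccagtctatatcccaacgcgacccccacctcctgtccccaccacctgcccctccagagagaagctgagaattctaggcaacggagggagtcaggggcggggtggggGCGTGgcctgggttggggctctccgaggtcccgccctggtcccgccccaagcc
The core was found at 2 places before Adm, 54 and 90 bases before the RefSeq start, at 2 places before Ramp3, and at 0 places in the window before Apln. In the windows before Calcrl and Ramp1, which are not shown, it was found at 0 places too. Of all 32851 RefSeq promoters, 38.6% held the core within 250 bases, so a match is common, and it is not in itself a site of binding. The AP-1 motif, TGACTCA or TGAGTCA on either strand, was held by 4.46% of all promoters and by 0 of these 5. The windows of Calcrl and Ramp3 were cut at the gene start to 105 and 238 bases, whereas the shares over all promoters are for 250 bases.

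Total counts were 21022997 to 28993921 in RVO eyes, 18897218 to 23419497 in control eyes and 12377572 to 15245869 in untreated eyes. Levels are given as CPM, the count per 1e6 counts of a sample after scaling by edgeR's TMM factors, and 3 counts correspond to 0.0956 to 0.272 CPM. Rod markers, which define the retina, were abundant in all samples, with a summed level of 50600 to 96100 CPM. Pairs of groups were tested with edgeR's quasi-likelihood test, and genes are called differentially expressed where p, adjusted over all genes after Benjamini-Hochberg, was under 0.01. The 3 comparisons share samples in pairs, so their values are set side by side and are not independent of each other. In such pools fewer cells of a type and less RNA per cell cannot be told apart. Lens markers, mainly crystallins, some of which the retina also makes, stood out in RVO replicate 2 and control replicate 1, with a summed level of 5960 and 3150 CPM against 188 to 496 CPM in the other laser-treated pools and 3.64 to 28.5 CPM in untreated pools. Tests, ratios and list counts between RVO and control eyes are also given without these 2 pools, whereas group means and ranges include them.

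Adm, on chromosome 7 of GRCm38 from 110627661 to 110629820 (plus strand), showed the highest fold changes of the members tested. It had 37.4, 23.0 and 24.8 CPM in RVO replicates 1 to 3, 3.66, 2.27 and 4.10 CPM in control replicates 1 to 3, and 0.636, 0.703 and 1.29 CPM in untreated replicates 1 to 3. The 3 groups did not overlap, and the lowest RVO sample, at 23.0 CPM, was far above the highest control sample, at 4.10 CPM. Raw counts were 541 to 1175 in RVO eyes and 45 to 98 in control eyes, but only 7 to 18 in untreated eyes, which limits the precision there. Adm exceeded its untreated level 32.3-fold in RVO eyes, a log2 fold change of 5.01 ± 0.31 (SE) with an adjusted p of 1.06e-05 in edgeR. In control eyes it was 3.79-fold above this level, a log2 fold change of 1.92 ± 0.32 (SE, adjusted p = 0.000164, edgeR). Against control eyes the log2 fold change in RVO eyes was 3.08 (95% confidence interval 2.45 to 3.71), which ranked 8 from the top among 16874 genes tested. An antisense gene that overlaps Adm, Gm28863, had at most 7 counts in any sample.

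Apln lies on the X chromosome from 48025146 to 48034853 (minus strand). It had 29.4, 15.8 and 30.5 CPM in RVO replicates 1 to 3, 4.79, 5.81 and 5.61 CPM in control replicates and 2.27, 2.19 and 2.50 CPM in untreated replicates. Its groups did not overlap either. RVO replicate 2 was the lowest RVO sample for both ligands, and still lay above all control samples. The RVO level of Apln exceeded the untreated one 11.1-fold, with a log2 fold change of 3.47 ± 0.29 (SE, adjusted p = 3.94e-05, edgeR). The control level exceeded the untreated one 2.35-fold, with a log2 fold change of 1.23 ± 0.17 (SE, adjusted p = 4.61e-05). Between RVO and control eyes its log2 fold change was 2.23 (95% confidence interval 1.62 to 2.83), which ranked 64 from the top.

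**Figure D1:**
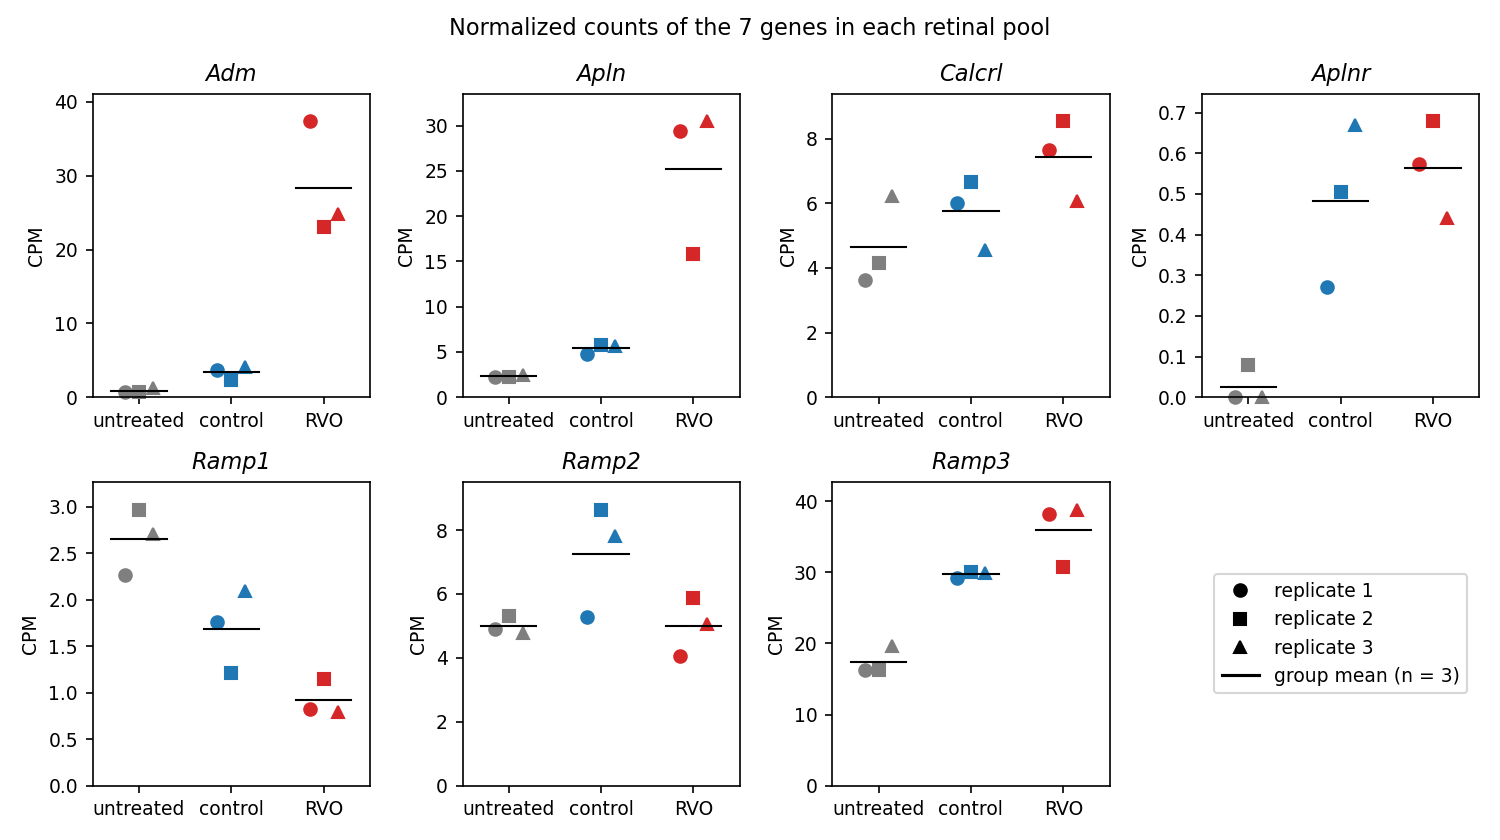
Normalized counts (CPM, linear axes from 0) of the 7 genes in untreated, control and RVO pools; each point is a pool of 6 retinas, its shape gives the replicate number, and lines are group means. Adm and Apln in RVO eyes lie above all other samples, whereas Ramp1 is lowest in RVO eyes and Calcrl overlaps between groups.

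The ligand genes were the 2 of 7 members differentially expressed between RVO and control eyes, both higher (edgeR, adjusted p = 0.00459 for Adm and 0.00679 for Apln), where 2.7% of all genes tested were called higher, 0.634% lower and 3.34% in either direction. These calls at 0.01 depended on single samples, while the fold changes did not. Over all alternatives tried, the log2 fold change was between 2.82 and 3.25 for Adm and between 2.06 and 2.45 for Apln. The adjusted p of Adm was 0.0265 without RVO replicate 3 and 0.0311, 0.0155 and 0.0361 without control replicate 1, 2 or 3. That of Apln was 0.0144 and 0.0389 without RVO replicate 1 or 3 and 0.0448, 0.0222 and 0.0538 without control replicate 1, 2 or 3. With the replicate number as a block it was 0.0314 for both genes. Without both pools rich in lens RNA, chosen after the data were seen, it was 7.19e-05 for Adm and 2.74e-05 for Apln (edgeR). RVO replicate 2, left out there, also had the lowest Adm and Apln of the RVO pools. Without that pool alone 6257 of all genes were called, against 563 with all pools. Leaving out these pools therefore cannot separate lens RNA from other differences of that pool. In the fit without these 2 pools Ramp3 was called higher and Ramp2 lower as well, so that 4 of 7 members were called. Of all genes tested, that fit called 12.5% higher and 16% lower. DESeq2, on all 6 pools, called Adm and Apln. The study also lists both genes among those most raised between these groups, and the members were chosen with earlier results of these data known. Their calls are therefore not independent of that choice.

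Calcrl, the receptor that adrenomedullin and CGRP share, lies on chromosome 2 from 84330626 to 84425411 (minus strand). It had 7.65, 8.54 and 6.07 CPM in RVO replicates, 6.01, 6.67 and 4.56 CPM in control replicates and 3.63, 4.14 and 6.21 CPM in untreated replicates. All 3 pairs of groups overlapped, mainly through untreated replicate 3 and RVO replicate 3. It did not pass the test in any comparison, with log2 fold changes of 0.37 between RVO and control (95% confidence interval -0.09 to 0.83, edgeR's adjusted p = 0.174), 0.69 between RVO and untreated (0.16 to 1.23, adjusted p = 0.028) and 0.30 between control and untreated eyes (-0.16 to 0.75, adjusted p = 0.23). With samples scaled by library size only, the adjusted p between RVO and untreated eyes was 0.00903, and without the filter on low counts it was 0.00727.

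Aplnr, the apelin receptor, on chromosome 2 from 85136225 to 85139923 (plus strand), was close to the limit of detection. It had 18, 16 and 10 counts in RVO replicates, 6, 10 and 16 counts in control replicates and 0, 1 and 0 counts in untreated replicates. In CPM these were 0.44 to 0.679 in RVO eyes, 0.271 to 0.67 in control eyes and 0 to 0.0781 in untreated eyes. Both laser groups lay above all untreated samples and overlapped each other. Between RVO and control eyes the log2 fold change was 0.22 (95% confidence interval -0.63 to 1.08, edgeR's adjusted p = 0.659), without control replicate 1 it was -0.06, and without both pools rich in lens RNA it was -0.22. Against untreated eyes the gene did not pass the filter for low counts. With a floor of 3 counts in each untreated sample, the RVO level was at least 2.35-fold higher, and for control eyes the bound was at least 2.01-fold higher. Without the filter its adjusted p against untreated eyes was 0.000325 in RVO and 0.000143 in control eyes (edgeR), and with DESeq2 it was 0.00445 and 0.0109.

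Ramp3, which turns Calcrl into an adrenomedullin receptor, lies on chromosome 11 from 6658521 to 6677475 (plus strand). It had 38.2, 30.8 and 38.8 CPM in RVO replicates, 29.2, 30.0 and 29.9 CPM in control replicates and 16.3, 16.3 and 19.6 CPM in untreated replicates. Both laser groups were above all untreated samples, and RVO replicate 2 was only just above the control samples. Relative to untreated eyes Ramp3 rose 2.11-fold in RVO eyes, with a log2 fold change of 1.08 ± 0.13 (SE, adjusted p = 0.00018, edgeR), and 1.72-fold in control eyes, with one of 0.78 ± 0.09 (SE, adjusted p = 9.05e-06). Between RVO and control eyes its log2 fold change was 0.28 (95% confidence interval 0.04 to 0.52, adjusted p = 0.0686), without RVO replicate 2 it was 0.36 with an adjusted p of 0.00192, and without both pools rich in lens RNA it was 0.34 with one of 0.00872.

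Ramp1, which turns the same receptor into the CGRP receptor, lies on chromosome 1 from 91179822 to 91225196 (plus strand) and had its lowest levels in RVO eyes. It had 0.828, 1.15 and 0.791 CPM in RVO replicates, 1.76, 1.21 and 2.09 CPM in control replicates and 2.27, 2.97 and 2.71 CPM in untreated replicates, from 18 to 50 counts per sample. The 3 groups did not overlap, with untreated eyes highest and RVO eyes lowest. Ramp1 was 2.82-fold lower in RVO than in untreated eyes (95% confidence interval of the log2 fold change -2.06 to -0.93, adjusted p = 0.000906, edgeR). The other differences were not called at 0.01, with log2 fold changes of -0.62 between control and untreated eyes (SE 0.24, adjusted p = 0.0368) and -0.88 between RVO and control eyes (SE 0.27, adjusted p = 0.0415).

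Ramp2, the RAMP of the main adrenomedullin receptor of endothelial cells, had 4.05, 5.86 and 5.06 CPM in RVO replicates, 5.29, 8.64 and 7.82 CPM in control replicates and 4.90, 5.31 and 4.79 CPM in untreated replicates. Control replicates 2 and 3 were the highest, whereas control replicate 1 lay within the range of the other groups. The log2 fold change was 0.02 between RVO and untreated eyes (95% confidence interval -0.40 to 0.45, edgeR's adjusted p = 0.919) and -0.54 between RVO and control eyes (-1.07 to -0.02, adjusted p = 0.0989). Without both pools rich in lens RNA the latter was -0.88 with an adjusted p of 0.00456. Between control and untreated eyes it was 0.55 (adjusted p = 0.0188), and without control replicate 1 it was 0.74 (adjusted p = 0.000768). With samples scaled by library size only this adjusted p was 0.0041. Exons of Ramp2 (chromosome 11 of GRCm38, 101246028 to 101259546) share 1103 of 3301 bases with Vps25 on the same strand, and Vps25, a gene of the endosomal sorting machinery, was listed with only 3 to 45 counts. How reads in shared exons were counted is not given in the sources used here, so the level of Ramp2 is uncertain.

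**Figure D2:**
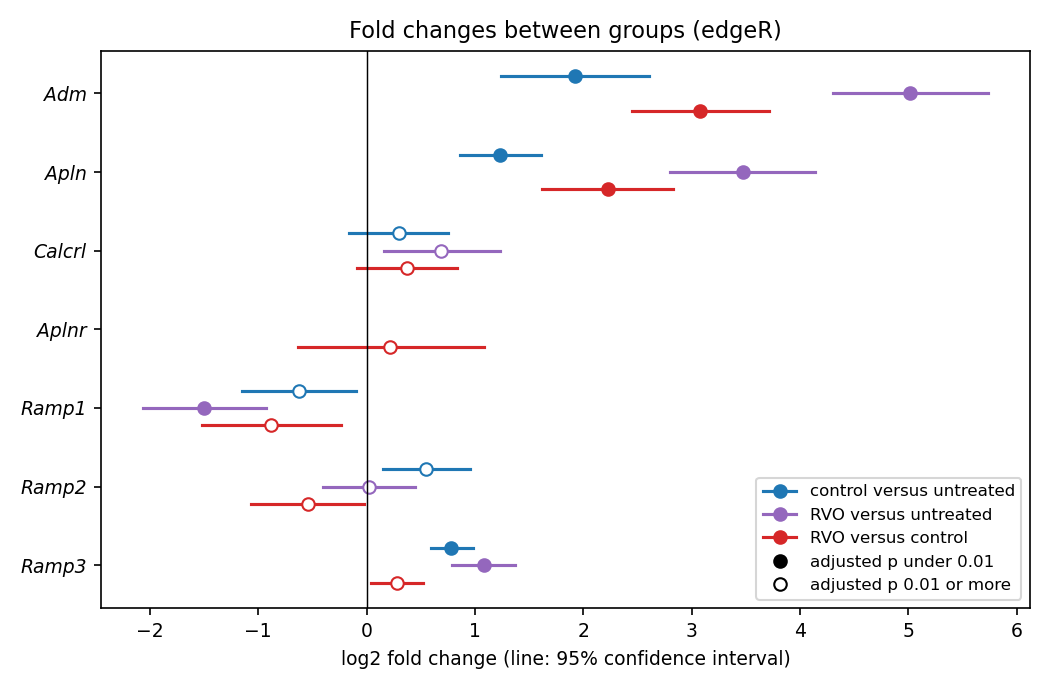
Log2 fold changes of the 7 genes in 3 comparisons (points) with 95% confidence intervals (lines) from edgeR; filled points have an adjusted p under 0.01. Adm and Apln lie furthest to the right in each comparison, Ramp1 lies left of 0, and Aplnr was tested between RVO and control eyes only.

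Against untreated eyes, 4 of 6 tested members were differentially expressed in RVO eyes, 3 higher (Adm, Apln and Ramp3) and 1 lower (Ramp1), where 52.1% of all genes were called, 27.4% higher and 24.6% lower. In control eyes 3 of 6 were higher (Adm, Apln and Ramp3) and 0 were lower (1 lower at an unadjusted p under 0.05 with edgeR, and 0 with DESeq2), where 52.4% of all genes were called, 27.2% higher and 25.2% lower. Such shares are near those of all genes. At a threshold of 0.05, 3 of 7 members were called between RVO and control eyes (34.6% of all genes), 5 of 6 between RVO and untreated eyes (66.9%) and 5 of 6 between control and untreated eyes (64.4%). With library size only as the scale, the share of called genes that were higher rose from 52.7% to 68.5% in RVO and from 51.9% to 70.4% in control eyes, and the median change of all genes (log2) shifted from 0.01 to 0.22 and from 0.01 to 0.19. The directions of Adm, Apln, Ramp1 and Ramp3 were the same with this scaling. The median log2 fold change of the tested members was 0.28 between RVO and control eyes (0.02 over all genes), 0.88 between RVO and untreated eyes (0.01) and 0.67 between control and untreated eyes (0.01). Groups did not overlap for 4 of 7 members between RVO and control eyes, where they did not overlap for 52.5% of all genes. In each comparison with untreated eyes they did not overlap for Adm, Apln, Ramp1 and Ramp3, that is 4 of 6 tested members, where this held for 73.4% (RVO) and 70% (control) of the genes tested, and for Aplnr, which was not tested.

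Levels of different genes were compared per kb of exon. In untreated eyes Ramp3 had the highest level, 12.6 ± 1.35 CPM per kb (SD, n = 3), followed by Ramp2 with 1.52 ± 0.0839, Calcrl with 0.955 ± 0.28, Ramp1 with 0.877 ± 0.117, Apln with 0.737 ± 0.0514 and Adm with 0.540 ± 0.221 CPM per kb. From Calcrl to Adm, each gene overlapped the next in this order. In RVO eyes the ligands came next after Ramp3, with 26.1 ± 3.23 CPM per kb for Ramp3, 17.6 ± 4.86 for Adm and 8.01 ± 2.60 for Apln. Ramp3 and Adm overlapped there, whereas Adm and Apln did not. Calcrl (1.52 ± 0.256 CPM per kb) and Ramp2 (1.51 ± 0.275) overlapped, and Ramp1 (0.305 ± 0.0646) and Aplnr (0.153 ± 0.0325) were lowest. Ramp3 was again highest in control eyes, with 21.5 ± 0.323 CPM per kb, and Ramp2 (2.20 ± 0.529), Adm (2.07 ± 0.589) and Apln (1.72 ± 0.171) overlapped. The level of Ramp2 rests on the exon length used: with the length of its principal transcript it was 4.25 instead of 1.52 CPM per kb in untreated eyes.

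Ramp3 made up 84.0% ± 1.89 (SD, n = 3) of the summed RAMP level per kb in untreated eyes, 88.7% ± 1.69 in control eyes and 93.4% ± 1.91 in RVO eyes. Ramp1 made up 5.86% ± 0.825, 2.31% ± 0.611 and 1.12% ± 0.372, respectively. The share of Ramp2 was 10.5%, 11.2% and 8.77% in untreated replicates, 6.87%, 10.6% and 9.58% in control replicates and 4.20%, 7.25% and 5.12% in RVO replicates. The difference between RVO and untreated eyes was -4.64 percentage points, with no overlap (two-sided exact permutation test, p = 0.1, which is the lowest value possible for 3 against 3 samples). Between RVO and control eyes RVO replicate 2 exceeded control replicate 1, and p was 0.2 in the same exact test. None of these p-values can fall under 0.05 in this design, and after adjustment over 9 such tests they were 0.15 and 0.257 (exact permutation, Benjamini-Hochberg). With the length of the principal transcripts the mean share of Ramp2 was 21.9% in untreated, 19.7% in control and 12.7% in RVO eyes, and Ramp3 had 72.3%, 77.9% and 86.1%.

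**Figure D3:**
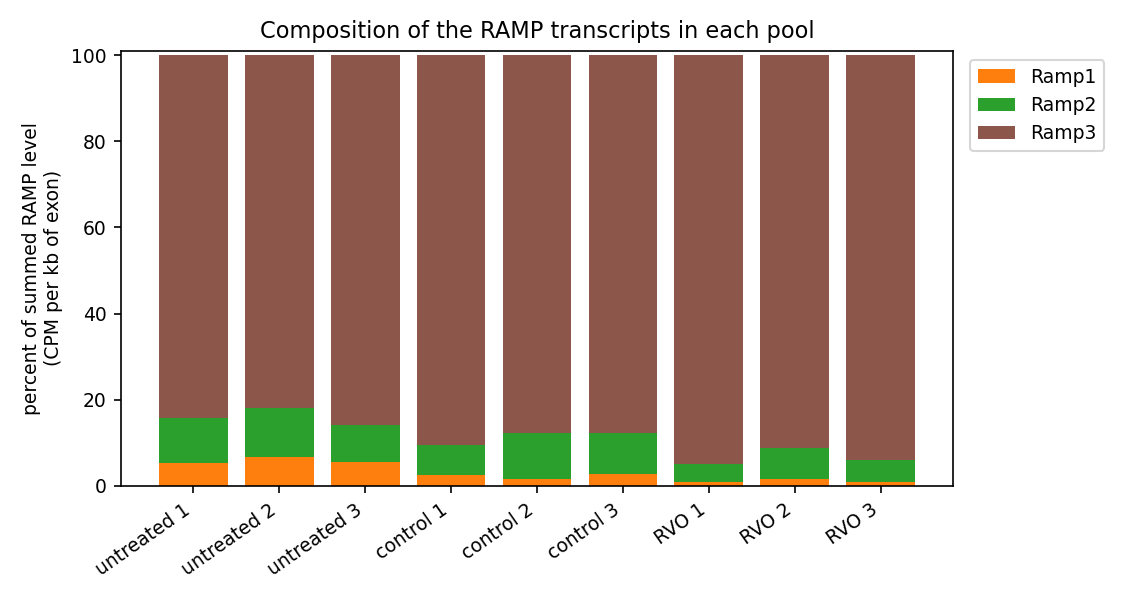
Share of Ramp1, Ramp2 and Ramp3 in the summed RAMP level (CPM per kb of exon, percent) for each of the 9 pools. Ramp3 takes 84.0% on average in untreated and 93.4% in RVO eyes, and Ramp1 takes 5.86% and 1.12%.

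The ratio of ligand to receptor level within each sample does not depend on the scaling of libraries. The log2 ratio of Adm to Calcrl, per kb, was -0.84, -0.90 and -0.65 in untreated replicates, 0.88, 0.05 and 1.44 in control replicates and 3.88, 3.02 and 3.62 in RVO replicates. No groups overlapped, and the difference was 2.72 between RVO and control eyes (exact permutation p = 0.1, adjusted 0.15). The log2 ratio of Apln to Aplnr was 5.63 ± 0.80 (SD, n = 3) in RVO, 3.74 ± 0.51 in control and 5.59 ± 0.99 in untreated eyes. It was 1.89 higher in RVO than in control eyes without overlap (exact permutation p = 0.1, adjusted 0.15). The values of untreated eyes rest on 0 or 1 counts of Aplnr plus the 0.5 counts added to each gene, and cannot be compared with the others. Without both pools rich in lens RNA the differences between RVO and control eyes were 3.01 for Adm to Calcrl, 2.60 for Apln to Aplnr and -5.42 percentage points for the share of Ramp2 (exact permutation p = 0.333 each, the lowest value that 2 against 2 samples allow).

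The lists below, also chosen with earlier results of these data known, are to be read against the share of all genes that passed the same threshold. Between RVO and control eyes an unadjusted p under 0.05 in edgeR was reached by 24.1% of genes as higher and 22.9% as lower, and DESeq2 called 11.1% higher and 12.8% lower of the genes tested. Without both pools rich in lens RNA edgeR called 12.5% higher and 16% lower at 0.01. Adm and Calcrl belong to the CGRP family of peptides and receptors. A list of 7 further genes held other peptides and a receptor of this family, together with the receptor component gene Crcp and the scavenger receptor gene Ackr3. Of these, 4 were tested between RVO and control eyes (Adm2, Calca, Crcp and Ackr3), and 0 were differentially expressed (1 with DESeq2). At an unadjusted p under 0.05 with edgeR 3 were higher, Adm2, Crcp and Ackr3. The median log2 change of the 4 was 0.35 (0.02 over all genes). Adm2 was called higher when both pools rich in lens RNA were left out. Adm2, which encodes intermedin, a further ligand of the same receptors, reached 2.54 ± 1.42 CPM (SD, n = 3) in RVO eyes, against 0.471 ± 0.141 in control and 0.452 ± 0.123 in untreated eyes. It rose from untreated to RVO eyes, with a log2 fold change of 2.54 ± 0.53 (SE, adjusted p = 0.00306, edgeR), and its adjusted p against control eyes was 0.0132 with a log2 fold change of 2.44. Calca, the gene of calcitonin and CGRP, rose from untreated to RVO eyes by 1.81 and to control eyes by 1.63 on the log2 scale (adjusted p = 0.000897 and 0.00175). Its log2 fold change between the laser groups was 0.15 (95% confidence interval -0.48 to 0.79). Crcp, a component of the CGRP receptor, and Ackr3, a receptor that removes adrenomedullin, had log2 fold changes between RVO and control eyes of 0.27 (adjusted p = 0.0484) and 0.42 (adjusted p = 0.1). Calcb and Calcr had at most 8 and 11 counts in any sample and were not tested, and Iapp had 0 counts in all 9, which allows up to 3 counts per sample.

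A further list of 8 genes held those that act on the peptides, together with Apela, the gene of another ligand of Aplnr. Of these, 7 were tested between RVO and control eyes and 0 were called (2 at an unadjusted p under 0.05 with edgeR, and 1 with DESeq2), with a median log2 change of 0.09. When both pools rich in lens RNA were left out, Furin was called higher and Pam lower. Furin, a protease that cleaves peptide precursors, reached 126 ± 13.7 CPM in RVO eyes, against 89.0 ± 2.05 in control and 55.0 ± 3.10 in untreated eyes (SD, n = 3). It rose from untreated to RVO eyes by 1.22 and to control eyes by 0.71 on the log2 scale (adjusted p = 3.38e-05 and 6.62e-07), and the adjusted p between the laser groups was 0.012. Apela had 8.96 ± 1.19 CPM (SD, n = 3) in untreated eyes, against 4.47 ± 0.281 in control and 4.77 ± 0.844 in RVO eyes. It fell by 0.88 on the log2 scale from untreated to RVO eyes and by 0.98 to control eyes (adjusted p = 0.00349 and 4.92e-05), the opposite sign of Apln. Pam, which amidates adrenomedullin, had a log2 fold change of -0.36 between RVO and control eyes (adjusted p = 0.0518). Mme, the peptidase neprilysin, fell by 0.93 on the log2 scale from untreated to control eyes (adjusted p = 0.00421), and its adjusted p in RVO against untreated eyes was 0.493. Prcp and Klkb1, which cleave peptides, had log2 fold changes between -0.25 and 0.16 in all 3 comparisons.

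Of 14 genes of signalling behind both receptors, 1 was higher and 0 were lower between RVO and control eyes (3 higher and 7 lower at an unadjusted p under 0.05 with edgeR, 2 higher and 4 lower with DESeq2), with a median log2 change of -0.17. The called gene was Gnai3, an inhibitory G protein subunit, with a log2 fold change of 0.71 (edgeR, adjusted p = 0.00989). The inhibitory subunits did not change alike: the value was -1 for Gnai1 (adjusted p = 0.0192) and -0.05 for Gnai2 (adjusted p = 0.612). In the fit without the pools rich in lens RNA 2 were higher and 5 lower. Against untreated eyes 4 were higher and 2 lower in RVO, and 6 were higher and 2 lower in control eyes. Over all genes 27.4% were called higher and 24.6% lower in RVO, and 27.2% and 25.2% in control eyes.

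Known HIF targets other than the members were represented by 18 genes. The test between RVO and control eyes called 6 of them higher and 0 lower (16 higher and 0 lower at an unadjusted p under 0.05 with edgeR, 12 higher and 0 lower with DESeq2), with a median log2 change of 0.65 (0.02 over all genes). The largest values among the called genes were 3.58 for Car9, a carbonic anhydrase, 2.48 for Ndufa4l2, a mitochondrial protein, 2.18 for Egln3, a HIF prolyl hydroxylase, and 1.14 for Vegfa, an endothelial growth factor. The fit without the pools rich in lens RNA called 7 higher and 0 lower. Against untreated eyes 13 were higher and 0 lower in RVO (13 higher with DESeq2), and 7 were higher and 4 lower in control eyes. Of 10 further genes of endothelial tip cells, where Apln is also known, 9 were tested between RVO and control eyes, and 1 was higher (Plaur, the urokinase receptor, which leukocytes express too) and 0 lower, with a median log2 change of 1.02 (6 higher and 0 lower at an unadjusted p under 0.05 with edgeR, 6 higher with DESeq2). Once the pools rich in lens RNA were left out, 6 were called higher. Against untreated eyes 8 of 9 were higher in RVO and 5 of 8 in control eyes.

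Both receptors are known from endothelial cells, so 16 endothelial markers were set beside the members. Their summed level was 269 to 438 CPM in RVO, 495 to 560 CPM in control and 292 to 306 CPM in untreated eyes, and 0 of the markers were at 0 in any group. Kdr and Flt1, receptors for Vegfa, made up 70.8% of the sum in RVO, 70.0% in control and 75.6% in untreated eyes. Control eyes were highest, also over the other 14 markers (144 to 177 CPM, against 81.4 to 128 CPM in RVO and 70.7 to 75.2 CPM in untreated eyes), and RVO replicate 1, with the highest Adm, had the lowest endothelial sum. From control to RVO eyes 1 marker, Sox17, was lower (log2 fold change -1.61) and 0 were higher (8 lower and 1 higher at an unadjusted p under 0.05 with edgeR, 7 lower and 1 higher with DESeq2), with a median log2 change of -0.67. The markers did not differ alike: Pecam1 and Cdh5, chosen after their values were seen, had log2 fold changes of 0.07 and 0.08 (adjusted p = 0.64 and 0.593). Leaving out the pools rich in lens RNA gave 9 lower and 0 higher. In control against untreated eyes 12 were higher, and in RVO against untreated eyes 5 were. Relative to this sum, Adm was 8.86 ± 4.51 CPM per 100 endothelial CPM in RVO (SD, n = 3), 0.651 ± 0.215 in control and 0.293 ± 0.12 in untreated eyes. Apln was 7.88 ± 3.81, 1.04 ± 0.068 and 0.777 ± 0.062 on this scale. Calcrl was 1.82 to 2.84 in RVO and 0.898 to 1.21 in control eyes, which did not overlap, and 1.24 to 2.09 in untreated eyes. Ramp2 was the member whose mean relative level differed least between groups, with 1.45 ± 0.099 in RVO, 1.38 ± 0.273 in control and 1.67 ± 0.0652 in untreated eyes. Even so, its untreated values (1.61 to 1.74) overlapped neither those of RVO (1.34 to 1.51) nor those of control eyes (1.07 to 1.54). Relative to the 14 markers other than Kdr and Flt1, Adm was 18.0 to 46.0 in RVO and 1.28 to 2.84 in control eyes, Apln was 12.4 to 36.1 and 3.23 to 3.88, and Calcrl was 6.42 to 9.39 and 3.16 to 4.06, so that these groups did not overlap with either sum. These relative values are a description without a test, and the part of cell composition in the differences was not tested.

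**Figure D4:**
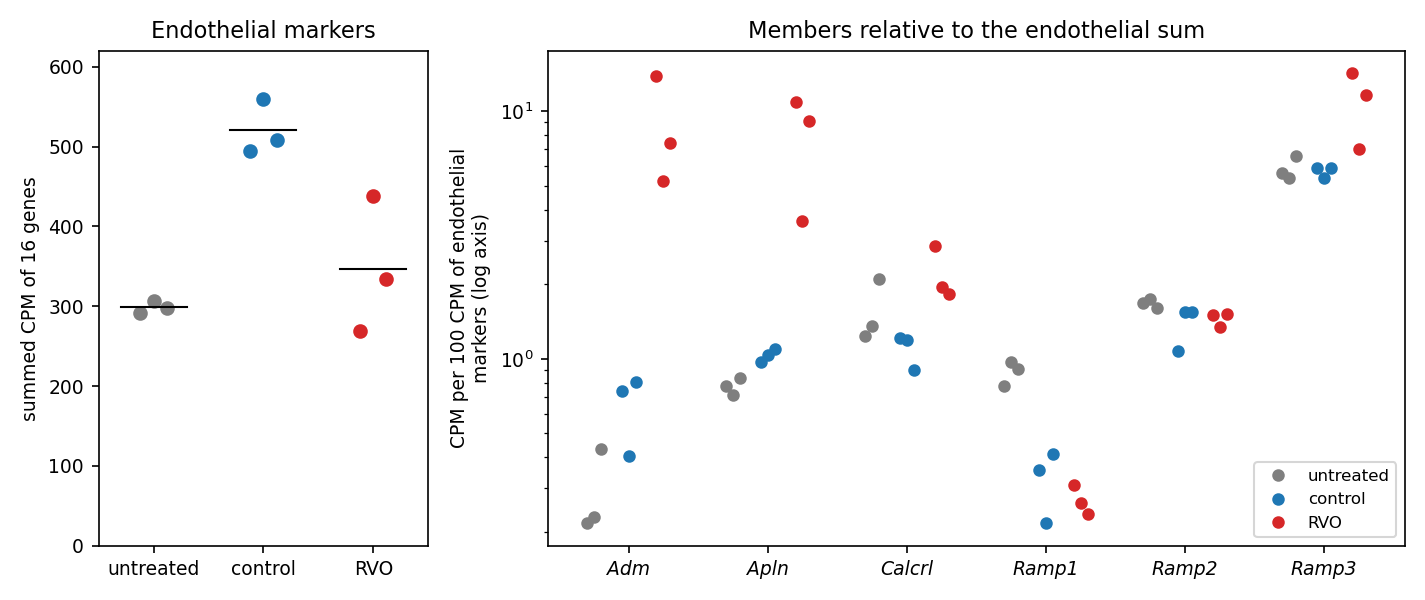
Left, summed CPM of 16 endothelial markers per pool with group means (lines); right, CPM of 6 genes per 100 CPM of this sum, on a log axis, for each pool. Control eyes have the highest endothelial sum, 495 to 560 CPM, and Adm and Apln in RVO eyes stay above all other samples on the relative scale.

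Markers of other cells differed between groups as well. Monocyte and macrophage markers had a summed level of 300 to 349 CPM in RVO eyes, 126 to 160 in control and 49.7 to 70.5 in untreated eyes, in the order of Adm and Apln. Of 10 such genes 3 were higher between RVO and control eyes (Lgals3, Cd68 and Lyz2, with log2 fold changes of 1.81, 1.34 and 1.20) and 0 were lower (1 lower at an unadjusted p under 0.05 with edgeR, 0 with DESeq2), and the list had a median of 0.93. Against untreated eyes 7 were higher and 1 lower in RVO and in control eyes alike. The order of Adm and Apln was also that of the sums of 2 lists given above, though not of all their genes. In RVO, control and untreated eyes, HIF targets summed to 5480 to 6670, 4170 to 5040 and 3600 to 4110 CPM. Tip cell genes summed to 97.6 to 164, 53.3 to 65.9 and 30.8 to 33.5 CPM, respectively. Mueller cell markers summed to 2050 to 3070 CPM in RVO eyes, 3470 to 4130 in control and 5280 to 5530 in untreated eyes, and the sum of rod markers was lowest in RVO eyes too (50600 to 54800 CPM against 94000 to 96100 CPM in untreated eyes). Both sums had the order of Ramp1, but the Mueller genes did not differ alike. Glul had 652 of a mean Mueller sum of 2500 CPM in RVO, 1250 of 3850 CPM in control and 2600 of 5420 CPM in untreated eyes. In control against untreated eyes 5 of the 10 Mueller markers were called lower and 1 higher, and Dkk3 had 808 CPM in each of these groups. Of 10 Mueller markers 0 were called between RVO and control eyes (7 lower at an unadjusted p under 0.05 with edgeR, 6 lower with DESeq2), with log2 fold changes of -0.94 for Glul and -0.79 for Dkk3 and a median of -0.74. Of 10 rod markers Sag and Pde6b were lower, with log2 fold changes of -0.71 and -0.57, and the list had a median of -0.35. Of 10 pericyte and smooth muscle markers 0 were called there (2 higher and 4 lower at an unadjusted p under 0.05 with edgeR and with DESeq2), with summed levels of 86.7 to 170 CPM in RVO and 118 to 143 CPM in control eyes. Their median log2 change was -0.55, and the value was -0.97 for Rgs5 (adjusted p = 0.0118) and 1.57 for Acta2 (adjusted p = 0.0196). Pigment epithelium markers had 357 to 691 CPM in RVO and 450 to 520 CPM in control eyes, and 0 of 8 were called (3 higher and 1 lower at an unadjusted p under 0.05 with edgeR, 1 higher with DESeq2), with log2 fold changes of -0.06 for Ttr and 0.08 for Rgr and a median of 0.23. Of 8 lens markers tested 0 were called between the laser groups (0 at an unadjusted p under 0.05 with edgeR, 0 with DESeq2), with log2 fold changes of 0.63 for Cryaa and 0.95 for Crybb2 and a median of 1.04. In untreated eyes 2 of the 10 lens markers were at 0. Without both pools rich in lens RNA the counts between RVO and control eyes were 5 higher and 1 lower for monocyte and macrophage, 7 lower for Mueller, 2 lower for rod, 2 higher and 5 lower for pericyte and smooth muscle, 2 higher and 1 lower for pigment epithelium and 0 for lens markers. The part of these cells in the levels of the members was not tested.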

How the data were processed

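RNA of 9 retinal pools was sequenced as stranded poly-A libraries. The authors mapped the reads with STAR 2.5.2b (Gencode vM11), counted them per gene with featureCounts (Subread 1.5.1) and deposited these counts without normalization. How reads of several genes and the strand were handled is not given in the sources used here. Of 48679 names, 92 were spike-in controls with 0 counts in sum, which were left out. Samples were grouped by their titles. The tests ran in edgeR 4.0.16 under R 4.3.3, for each pair of groups with filterByExpr, TMM scaling, quasi-likelihood fits, Benjamini-Hochberg adjustment over all genes tested and a threshold of 0.01. Standard errors and intervals follow from the fold change and its F statistic. The study used DESeq2, and version 1.42.0 served as an alternative. Others were other scalings, no filter, all 9 samples in 1 fit, a replicate block, a threshold of 0.05 and each sample left out. Other exon lengths for the RAMP shares, levels per endothelial marker sum, also without Kdr and Flt1, and leaving out both pools rich in lens RNA were added after seeing the data. Coordinates and exon lengths are from GENCODE vM21 on the same build, GRCm38. Ratios were tested by exact permutation of samples after adding 0.5 counts. The edgeR steps were also run on simulated counts with known changes, with an outcome not reported here. These counts were drawn independently for each sample, without pairing or a deviating pool, so they do not test how calls depend on single samples.

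The members and lists were chosen with earlier results of these data known. The lists were CGRP family, peptide processing, receptor coupling, HIF targets, tip cells, and markers of endothelial, mural, Mueller, pigment epithelium, monocyte and macrophage, rod and lens cells. Genes named were the members, the genes of the first 2 lists (some are not reported here), up to 4 called genes with the largest change per other list (where none was called, the 2 with the highest level), and 3 genes per member with the most similar profile. The labels' treatment protocol ties the fellow eyes to the same mice but gives the replicate numbers no meaning. Replicates were separate pools (chi-square per degree of freedom between counts 3.34 to 59.5), and p-values measure the spread between pools.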

Additional observations from a re-analysis of the deposited data

How the results depend on the processing

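The number of members called between RVO and control eyes was 2, and it ranged from 0 to 3 when 1 sample was left out. It was 0 without RVO replicate 3 and without any of the control replicates (2 to 4 members at an unadjusted p under 0.05 with edgeR; DESeq2 was not run on these subsets), 1 without RVO replicate 1 and 3 without RVO replicate 2. With the replicate number as a block it was 0 (6 members at an unadjusted p under 0.05 with edgeR, and 2 called by DESeq2 without a block), and without both pools rich in lens RNA it was 4. The number of all genes called in this comparison varied too, with 563 as reported, 892 with library size only, 3309 with no filter, 3853 with all 9 samples in 1 fit, 4038 with DESeq2, 5836 at a threshold of 0.05, 0 with the block (7227 at an unadjusted p under 0.05) 4848 without both pools rich in lens RNA, and 0 to 6257 with a sample left out, the highest without RVO replicate 2. The share of these genes that were higher was 81.0% as reported and 46.5% to 50.7% with DESeq2, no filter, all 9 samples or the threshold of 0.05. Samples with the same replicate number deviated from their group means with correlations of -0.12, -0.14 and 0.07 between RVO and control eyes. Of the 3 RVO samples, 0 correlated best with the control sample of their own number. With 3 pools per group, and lens RNA that differed between pools, these correlations cannot decide whether the numbers pair the samples. Against untreated eyes the number of members called was 4 to 6 in RVO eyes and 3 to 5 in control eyes, where it was 3 as reported, 5 without the filter and 5 at a threshold of 0.05. Signs turned for 3 results, and the cause was not tested. The log2 fold change of Ramp2 between RVO and untreated eyes, 0.02, was -0.01 with all 9 samples in 1 fit and -0.10 to 0.17 with a sample left out. That of Aplnr between RVO and control eyes, 0.22, was -0.06 to 0.55 with a sample left out and -0.22 without both pools rich in lens RNA. The difference in the log2 ratio of Apln to Aplnr between RVO and untreated eyes, 0.04, was -0.52 to 0.49 with a sample left out. The replicate block brought 1 further call, Ramp2 between control and untreated eyes (0.55, adjusted p = 0.00893 in edgeR). In untreated samples Adm, Apln, Ramp1 and Aplnr had at most 38 counts, which limits the precision of their values.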

Other observations

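The genes whose log2 CPM followed each member most closely over the 9 samples, among genes with a mean of at least 1 CPM, are given as a description, and the 9 points share their 3 groups and their libraries. For Adm they were Dip2b, Rassf1 and Drd4 (Pearson's r 0.993 to 0.995). For Apln they were Rpl34, Krt18 and Rps27l (r 0.994 to 0.998), where Rpl34 is uncertain because ribosomal protein genes share reads with pseudogene copies, for Ramp3 Cdk20, Zc3h10 and Aspscr1 (r 0.996 to 0.998) and for Ramp1 Pfkfb2, Gm11961 and Lgals12 (r 0.985 to 0.991). The best values were lower for Calcrl, with Cryl1, the macrophage gene Adgre1 and Prok1 (r 0.934 to 0.944), and for Ramp2, with Adamts5, Ifit2 and Gpr84 (r 0.939 to 0.972). For Aplnr they were Ggn, Tgm1 and the monocyte chemokine receptor Ccr2 (r 0.977 to 0.985), from counts that were at most 18 per sample.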
